A study of Homo sapiens with 9 samples.

Results

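CXCL8 and 9 other genes for chemokines and cytokines that colon epithelium can secrete were followed in HCT116, an established cell line from a human colon carcinoma, as 10 of the 58395 genes listed for each library. The list held CXCL8, CXCL1, CXCL2, CXCL3, CXCL16, CCL20, CX3CL1, IL32, LIF and CSF1, and each was found once by its Ensembl identifier. The genes were selected on values of these same libraries, since CXCL8 was known to stand far above the vector libraries in both construct groups when the list was drawn up. Their levels and differences are therefore given as a description, with no p-value, and a count of them past a threshold supports nothing.

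There were 9 RNA-seq libraries, 3 from each of 3 stable lines, and all of them carried a short hairpin RNA against STBD1 (shSTBD1), a glycogen-binding protein studied as a receptor for glycogen autophagy. The plvx neo line carried the vector alone, the STBD1 WT line a hairpin-resistant STBD1, and the STBD1 W203C line the same construct with 1 tryptophan replaced by cysteine. No library came from cells without the hairpin, no treatment is labelled, and the study's methods call the replicates biological, without the labels saying how they were separated. Labels and table names disagree, as the deposited tables of each construct are named after the other one. Groups follow the labels here. If the table names were right, every difference between STBD1 WT and STBD1 W203C would have the opposite sign, and what is said of either construct against plvx neo would belong to the other.

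Chemokines are small secreted proteins that draw leukocytes along a gradient through G protein-coupled receptors. CXCL8 (interleukin-8), CXCL1, CXCL2 and CXCL3 carry the ELR motif and attract neutrophils through CXCR1 and CXCR2, and gut epithelium is known to make them when bacterial products or tumour necrosis factor activate NF-kB. NF-kB is a family of dimeric transcription factors held in the cytoplasm by IkB proteins, and AP-1 and C/EBP factors are known to act beside it at the CXCL8 promoter.

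The promoters are shown because those of the ELR chemokines and IL32 share a motif of the NF-kB type. The sequences are from RefSeq (GRCh38.p14) and run from 150 bases before to 1 base before the annotated start, in the direction of transcription, with matches to GGNNNTTCC (NF-kB type) or TGANTCA (AP-1 type) on either strand in capitals. CXCL8 (chr4:73740419-73740568, plus strand) was the only member with a match of the AP-1 type in its window, TGACTCA at -137, beside GGAATTTCC at -91, where positions count to the first base of the match.
CXCL8: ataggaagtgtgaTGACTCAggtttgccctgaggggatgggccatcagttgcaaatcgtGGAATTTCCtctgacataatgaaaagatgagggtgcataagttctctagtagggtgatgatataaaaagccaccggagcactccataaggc
CXCL1 (chr4:73869243-73869392, plus strand), CXCL2 (chr4:74099196-74099345, minus strand) and CXCL3 (chr4:74038690-74038839, minus strand) each held GGAATTTCC at -78 (-77 in CXCL2) and GGGCTTTCC at -53.
CXCL1: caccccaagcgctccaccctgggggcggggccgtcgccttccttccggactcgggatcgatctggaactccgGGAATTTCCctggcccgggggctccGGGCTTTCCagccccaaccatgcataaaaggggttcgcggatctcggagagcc
CXCL2: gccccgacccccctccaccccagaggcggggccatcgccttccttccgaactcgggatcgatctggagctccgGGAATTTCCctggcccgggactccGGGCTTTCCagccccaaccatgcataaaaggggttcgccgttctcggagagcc
CXCL3: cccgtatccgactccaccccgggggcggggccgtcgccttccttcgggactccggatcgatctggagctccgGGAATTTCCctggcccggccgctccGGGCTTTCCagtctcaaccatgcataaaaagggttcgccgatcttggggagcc
IL32 (chr16:3065253-3065402, plus strand) held GGAGTTTCC at -98 and GGACTTTCC at -68 before the first of its 2 listed starts.
IL32: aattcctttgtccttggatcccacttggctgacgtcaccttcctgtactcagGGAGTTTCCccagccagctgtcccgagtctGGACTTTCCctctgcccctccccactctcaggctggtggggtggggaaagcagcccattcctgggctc
The CXCL1, CXCL2 and CXCL3 stretches were identical at 86.1% to 88.7% of aligned positions, against 45.0% between CXCL8 and CXCL1. Over windows of 300 bases, from 250 before to 50 after each start, a match of the NF-kB type was present in 6 of the 7 windows listed for 6 members (these 5 and CCL20, with GGAAAACCC at -79, which matches on the opposite strand), the window of the second IL32 start having none, and in 20.1% of 35116 such windows of all genes. A match of the AP-1 type was present in 7.71% of them. CXCL16, CX3CL1, LIF and CSF1 had no entry. A match describes letters and is not a measured binding site. The gene spans given below are from GENCODE, whose starts differ from those of RefSeq for some members. Part of the CXCL8, CXCL2, CXCL3 and IL32 stretches and the whole CCL20 window lie inside those spans.

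Total expected counts were 16.9 to 23.3 M per library (M, mega), so that 3 counts, the limit that a count of 0 allows, corresponded to 0.129 to 0.178 CPM (counts scaled to 1 M per library), covering counting error only. STBD1 was listed at 2.75 to 3.84 TPM (transcripts scaled by effective length to a fixed total per library) in the plvx neo libraries, 10.8 to 10.9 TPM in those labelled STBD1 WT and 8.37 to 10.3 TPM in those labelled STBD1 W203C. The gene FAM47E-STBD1, which shares its sequence, was at 0.96 to 2.41, 41.5 to 46.1 and 34.7 to 38.4 TPM. Of 7 markers of colon epithelium 5 reached 1 TPM, while CDX1 was listed at 0 and VIL1 stayed at or below 0.08 TPM. Their summed level was 3792 to 3889 TPM in plvx neo, 3388 to 3520 TPM in STBD1 WT and 3168 to 3429 TPM in STBD1 W203C. KRT8 and KRT18 were lower in both constructs than in plvx neo (log2 fold change -0.44 to -0.41, edgeR adjusted p = 1.31e-07 or less), and all 5 tested markers passed in STBD1 WT vs plvx neo, 2 higher (KRT19 and CDH1) and 3 lower. Of 6 leukocyte markers only CD68 averaged at least 1 TPM over the 9 libraries. ITGAM passed 1 TPM in some libraries, with 1.21 and 1.19 for STBD1 WT replicates 1 and 3 and 2.16 for STBD1 W203C replicate 2. ITGAM stayed at 0.33 to 0.58 TPM in the other construct libraries and at 0.32 to 0.48 TPM in plvx neo. CD68 was higher in STBD1 WT than in plvx neo (log2 fold change 1.01, SE 0.175, edgeR adjusted p = 2.14e-04). CD68 was lower in STBD1 W203C than in STBD1 WT (-1.48, SE 0.193, edgeR adjusted p = 8.26e-06). The summed leukocyte markers stood at 2.94 to 3.1 TPM in plvx neo, 5.59 to 8.67 TPM in STBD1 WT and 2.82 to 4.48 TPM in STBD1 W203C, with PTPRC at or below 0.01 TPM and CD3E at or below 0.06 TPM throughout. Of the fibroblast markers COL1A1, with DCN at 0, was higher in STBD1 WT than in plvx neo (0.48, adjusted p = 9.11e-06) and lower in STBD1 W203C than in STBD1 WT (-0.49, adjusted p = 9.07e-06), the summed list standing at 13.8 to 16.5, 16.7 to 21.8 and 12.7 to 18.3 TPM, and the endothelial markers summed to at most 0.22 TPM. In STBD1 W203C the 1.33 to 2.01 TPM of CD68 lay below the 2.17 to 2.41 TPM of plvx neo. The part of these markers and of the construct's own level in the results below was not tested.

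CXCL8 (ENSG00000169429, hg38 chromosome 4, 73740519 to 73743716, plus strand) was the member that differed most from plvx neo in both constructs. Its level in TPM was 1.60, 1.23 and 1.3 in plvx neo, 15.2, 14.1 and 11.8 in STBD1 WT, and 8.80, 9.07 and 7.16 in STBD1 W203C. Every construct library lay above every vector library, and the STBD1 W203C libraries lay between the other groups without overlapping either. The expected counts behind these levels were 27, 30 and 26, then 302, 396 and 255, then 195, 185 and 157. The group means were 1.38 ± 0.197, 13.7 ± 1.72 and 8.34 ± 1.03 TPM (SD, n = 3). In the edgeR fit of counts the log2 fold change was 3.55 (SE 0.143) for STBD1 WT and 2.81 (SE 0.172) for STBD1 W203C against plvx neo, 2 comparisons that share the plvx neo libraries. STBD1 W203C against STBD1 WT gave -0.73 (SE 0.102), a direction that holds for the libraries as labelled. With any 1 library left out these values stayed within 3.49 to 3.62, 2.76 to 2.90 and -0.80 to -0.64.

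CXCL1 (chromosome 4, 73869393 to 73871308, plus strand), also known as GRO-alpha, lies 129 kb from the start of CXCL8 in the same cluster. It stood at 0.69, 1.35 and 0.17 TPM in plvx neo, 5.21, 3.49 and 4.40 TPM in STBD1 WT, and 2.69, 3.19 and 2.80 TPM in STBD1 W203C. In TPM the 3 groups did not overlap, and their order was that of CXCL8. In log2 CPM the construct groups met, as STBD1 WT replicate 2 (1.28) lay below STBD1 W203C replicate 2 (1.31). The vector levels rest on 11, 18 and 1 expected counts, and against them the log2 fold change was 2.62 (SE 0.414) for STBD1 WT and 2.09 (SE 0.425) for STBD1 W203C. Between the constructs it was -0.52 (SE 0.237) and did not pass the threshold of an adjusted p below 0.05, except without STBD1 WT replicate 2 (-0.72). Without plvx neo replicate 2 the values against plvx neo became 3.31 and 2.78, and over all fits with 1 library left out they ran from 2.10 to 3.31 and from 1.58 to 2.78. On both TPM scales the call for STBD1 W203C against plvx neo was lost (1.22 on log2(TPM + 1) and 2.14 on log2(TPM + 0.1)).

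CXCL2 (chromosome 4, 74097040 to 74099196, minus strand) and CXCL3 (chromosome 4, 74036589 to 74038807, minus strand) encode the closest relatives of CXCL1 and were near the limit of detection. CXCL2 had 19, 11 and 14 expected counts in plvx neo, 43, 30 and 31 in STBD1 WT, and 24, 28 and 20 in STBD1 W203C. Its mean level was 1.11 ± 0.286, 3.28 ± 1.45 and 2.27 ± 0.722 TPM (SD, n = 3). Both construct groups lay above the vector libraries and overlapped each other. Its TPM is uncertain, since the effective length that divides its counts ran from 481 to 978 bases between libraries. The same holds within plvx neo for CXCL1, with 335 to 854 bases, and for CXCL8, with 896 to 1257 bases. The log2 fold change of CXCL2 against plvx neo was 1.29 (SE 0.350) for STBD1 WT, past the threshold except without STBD1 WT replicate 1 (1.02), and 0.83 (SE 0.353) for STBD1 W203C, short of it. Between the constructs CXCL2 gave -0.46 (SE 0.314) and CXCL3 -0.011 (SE 0.373). CXCL3 had 6, 11 and 7 expected counts in plvx neo, 18, 23 and 11 in STBD1 WT, and 11, 16 and 21 in STBD1 W203C. Its TPM did not overlap between vector and constructs (0.32 to 0.60 against 0.91 to 1.28 and 0.77 to 1.69), and its counts just met. The log2 fold change against plvx neo was 1.13 (SE 0.416) for STBD1 WT and 1.12 (SE 0.435) for STBD1 W203C, and the first, just past the threshold, passed it in only 1 of the 6 fits with a library left out. CXCL3 was the only tested member whose mean TPM in STBD1 W203C was not between those of the other groups. CXCL1 and CXCL3 entered both comparisons with plvx neo only through the higher counts of the construct libraries. Reads of the 3 relatives were separable over most of their length, as no stretch of 100 bases and 5.26% to 10.1% of stretches of 50 bases of their transcripts occurred in another of the 3.

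**Figure D1:**
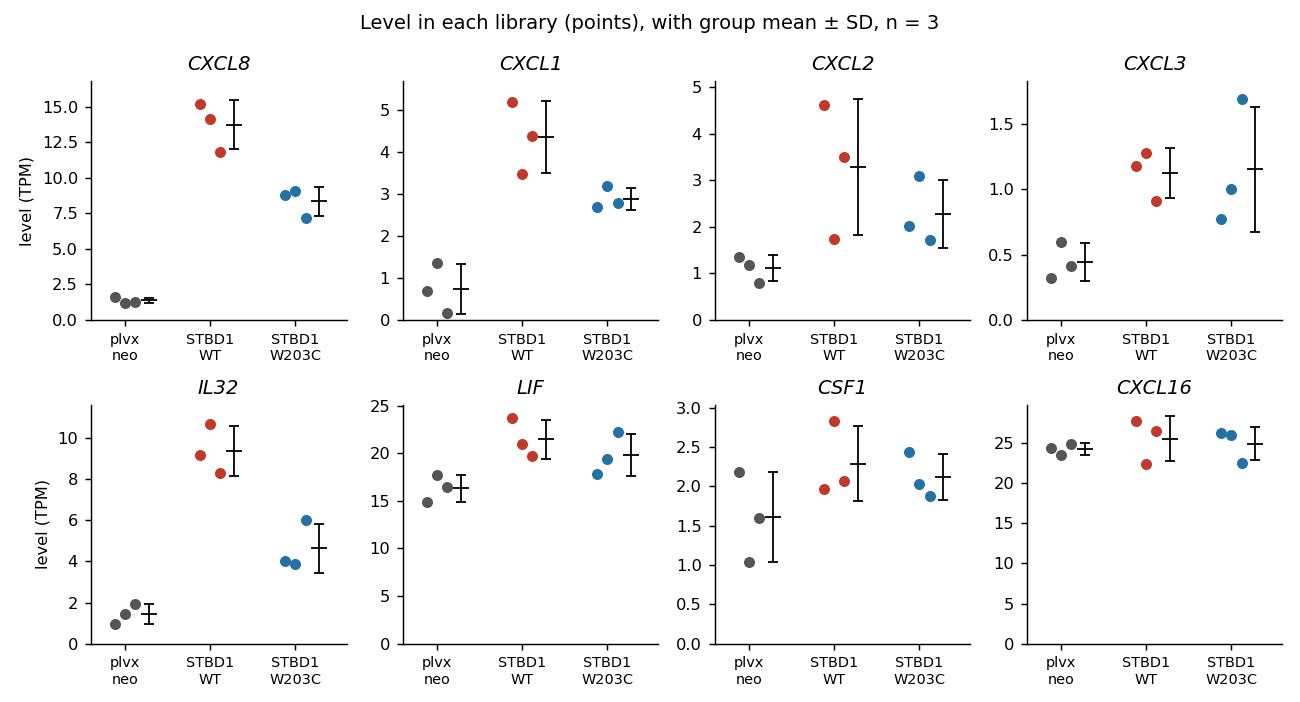
Level in TPM (vertical axis from 0) of the 8 tested members in each library, by group, with the group mean and SD (n = 3) beside the points. CXCL8, CXCL1 and IL32 show 3 separate groups with STBD1 W203C in the middle, and CXCL16 shows 3 groups that overlap, between 22.4 and 27.7 TPM.

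IL32 and the growth and differentiation cytokines followed. IL32 (ENSG00000008517, chromosome 16, 3065297 to 3082192, plus strand) encodes a pro-inflammatory cytokine that has no mouse counterpart and is known to be induced through NF-kB. It stood at 0.94, 1.46 and 1.94 TPM in plvx neo, 9.15, 10.7 and 8.29 TPM in STBD1 WT, and 4.04, 3.88 and 6.02 TPM in STBD1 W203C. The groups did not overlap, and STBD1 W203C was again in the middle. Its TPM also moves with effective length, as the STBD1 W203C counts were 47, 45 and 48 while the length ran from 469 to 729 bases. The log2 fold change against plvx neo was 2.67 (SE 0.235) for STBD1 WT and 1.57 (SE 0.288) for STBD1 W203C, the latter without its call on log2(TPM + 0.1) (1.64). Between the constructs it was -1.09 (SE 0.180), against -0.73 for CXCL8, a pair of values whose difference was not tested. Its annotated span overlaps RNU1-125P on the same strand and ENSG00000262370 on the other, and whether counting used strand was not given in the sources used here, so its level is uncertain to that extent.

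LIF (chromosome 22, 30240453 to 30246759, minus strand), a cytokine of the interleukin-6 family that signals through LIFR and IL6ST, was the second most abundant member. Its level was 14.9, 17.7 and 16.4 TPM in plvx neo, 23.7, 20.9 and 19.7 TPM in STBD1 WT, and 17.8, 19.4 and 22.2 TPM in STBD1 W203C. In TPM both construct groups lay above the vector libraries. The fit of counts gave a log2 fold change of 0.30 (SE 0.0582) for STBD1 WT and 0.0033 (SE 0.0615) for STBD1 W203C against plvx neo, and -0.29 (SE 0.0586) between the constructs. TPM and counts part in STBD1 W203C, where the effective length of LIF was 2789 to 3077 bases against 3333 to 3729 in plvx neo. On log2(TPM + 1) and log2(TPM + 0.1) the difference between the constructs was -0.11 on either scale and lost its call. LIF-AS1 and LIF-AS2 overlap LIF on the opposite strand. CSF1 (chromosome 1, 109910242 to 109930992, plus strand), the growth factor of macrophages, was at 1.61 ± 0.570, 2.29 ± 0.474 and 2.12 ± 0.290 TPM (SD, n = 3), and all groups overlapped in TPM. In log2 CPM its plvx neo libraries (1.73 to 2.49) lay below those of STBD1 WT (2.69 to 2.87). The effective length of CSF1 ran from 2222 to 3684 bases within plvx neo. CSF1 passed the threshold in neither comparison with STBD1 W203C. Its log2 fold change of 0.57 (SE 0.171) in STBD1 WT vs plvx neo passed the threshold, and did not without plvx neo replicate 2 (0.38), without STBD1 WT replicate 3 (0.51), or on log2(TPM + 1) (0.35) and log2(TPM + 0.1) (0.52).

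Of the chemokines made as membrane-bound proteins, CXCL16 was abundant at like levels in all groups and CX3CL1 was not detectable above its limit. CXCL16 (chromosome 17, 4733533 to 4739928, minus strand), which is cut from the surface by ADAM10 and attracts T cells through CXCR6, was the most abundant member in every group, at 24.3 ± 0.714, 25.5 ± 2.77 and 24.9 ± 2.10 TPM (SD, n = 3). With 632 to 868 expected counts per library it was measured far above the limit of detection, and its log2 fold change was 0.056 (SE 0.0678) for STBD1 WT and -0.025 (SE 0.0684) for STBD1 W203C against plvx neo, and -0.077 (SE 0.0738) between the constructs. None passed the threshold, and both values against plvx neo changed sign under some alternatives. Its span overlaps MED11 and ZMYND15 on the opposite strand. CX3CL1 (chromosome 16, 57372477 to 57385044, plus strand), fractalkine, had 1 count in all, in plvx neo replicate 2. CCL20 (chromosome 2, 227805739 to 227817564, plus strand), which attracts CCR6-bearing cells, had 0 counts in plvx neo, 0, 2 and 0 in STBD1 WT, and 0, 4 and 1 in STBD1 W203C. Both were too low to test in every comparison, and no difference was detectable at this depth.

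In the plvx neo libraries the order by mean TPM was CXCL16, LIF, CSF1, IL32, CXCL8, CXCL2, CXCL1 and CXCL3, in which the neighbours from CSF1 to CXCL3 overlapped. In the libraries labelled STBD1 WT it was CXCL16, LIF, CXCL8, IL32, CXCL1, CXCL2, CSF1 and CXCL3, with overlaps between CXCL16 and LIF and among CXCL1, CXCL2 and CSF1. STBD1 W203C gave the same order, with overlaps among CXCL1, CXCL2 and CSF1.

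Counted over the members, 7 of the 8 tested were higher in STBD1 WT vs plvx neo (all but CXCL16), where 27.8% of the 15289 genes tested passed the threshold, 13.9% higher and 13.9% lower. In STBD1 W203C vs plvx neo 3 of 8 were higher (CXCL8, CXCL1 and IL32), where 5.70% of all genes passed, 3.03% higher and 2.67% lower. In STBD1 W203C vs STBD1 WT 3 of 8 were lower (CXCL8, IL32 and LIF), where 27.9% passed, 14.5% higher and 13.4% lower. The median log2 fold change of the members was 1.21, 0.97 and -0.37, beside 0.0061, -0.0031 and -0.0078 for all genes tested. As CXCL8 and its fellows were picked with these contrasts in view, nothing is read from the counts or medians.

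**Figure D2:**
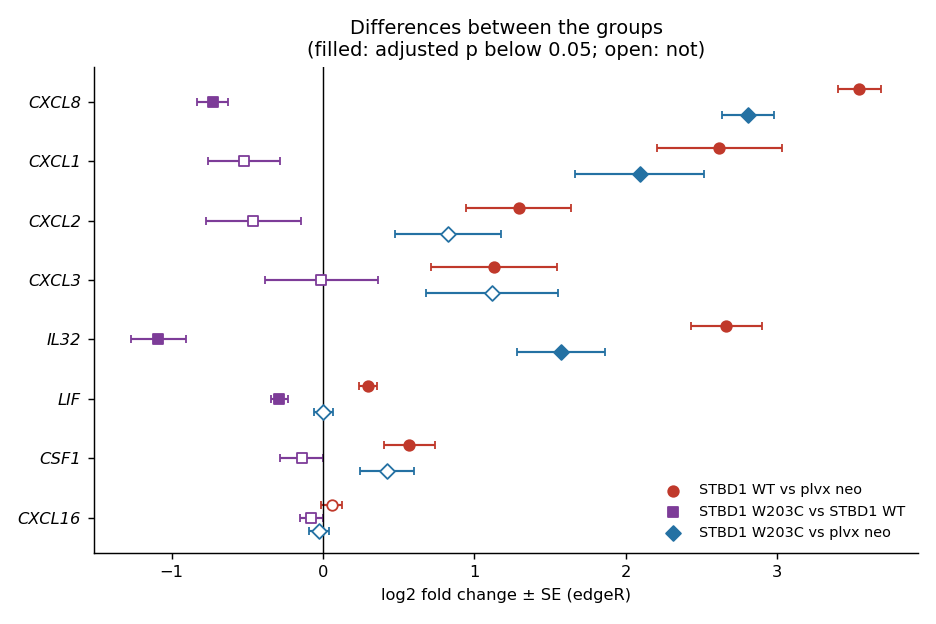
Log2 fold change with its standard error (horizontal axis, edgeR on expected counts) of the 8 tested members in the 3 comparisons, filled where the adjusted p was below 0.05. CXCL8, CXCL1 and IL32 lie above 1.5 in both comparisons with plvx neo, and CXCL16 lies within 0.08 of 0 in all 3.

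The rest of the chemokine family was near or below detection. Of 38 other chemokine genes listed, none had enough counts to be tested in any comparison, and the highest was CCL26, with 1 to 10 counts per library and 34 over all of them. CXCR1 and CXCR2, the receptors of CXCL8, were listed at no more than 0.07 and 0.27 TPM and were too low to test. Of 33 other cytokine genes 8 were tested. In STBD1 WT vs plvx neo 4 of these were higher, beside 13.9% of all genes tested. Among the 4 were IL18, an inflammasome-processed cytokine of epithelium (log2 fold change 0.33, SE 0.0517, edgeR adjusted p = 7.39e-05), IL15 (1.00, SE 0.283, adjusted p = 0.0116), and MIF (0.13, SE 0.0420, adjusted p = 0.0215). The fourth, EBI3 (1.28, SE 0.379, adjusted p = 0.0152), was below the level set for naming and is named after its value was seen. IL18 was lower in STBD1 W203C vs STBD1 WT (-0.35, SE 0.0537, adjusted p = 5.17e-05), and no cytokine of this list passed in STBD1 W203C vs plvx neo, where edgeR gave IL18 -0.023 (SE 0.0563). IL18 stood in STBD1 W203C at 51.7 to 56.1 TPM, overlapping the 52.1 to 53.1 TPM of plvx neo, against 65.9 to 69.1 TPM in STBD1 WT. Of the receptors, IL6ST, the shared signalling subunit for LIF, was higher in both constructs against plvx neo (log2 fold change 0.38, adjusted p = 7.24e-04, and 0.29, adjusted p = 0.0312, edgeR), and LIFR passed in neither. The second IL6ST call was not made by DESeq2 (adjusted p = 0.0530).

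Most genes of the NF-kB system were higher in both constructs than in plvx neo. All 16 of the list were tested, and 11 were higher and 1 lower in STBD1 WT vs plvx neo, 9 higher and 1 lower in STBD1 W203C vs plvx neo, and 2 higher and 8 lower in STBD1 W203C vs STBD1 WT. Of all genes tested 27.8%, 5.70% and 27.9% passed in these comparisons, in either direction. The median log2 fold change of the list was 0.37, 0.33 and -0.17. These genes include known NF-kB targets, and the list was drawn up with results of these libraries known, so its direction is no independent evidence.
RELB, the subunit of the non-canonical pathway, was at 6.10, 5.48 and 6.75 TPM in plvx neo, 29.0, 26.4 and 30.1 TPM in STBD1 WT, and 24.1, 21.7 and 23.6 TPM in STBD1 W203C. The 3 groups were separate and in the order of CXCL8. Its log2 fold change against plvx neo was 2.29 (SE 0.0831, edgeR adjusted p = 7.73e-14) and 1.93 (SE 0.0907, adjusted p = 7.96e-13), and between the constructs -0.35 (SE 0.0609, adjusted p = 1.87e-04).
NFKBIA, which encodes IkB-alpha, the inhibitor that NF-kB itself induces, was at 23.3, 21.4 and 21.4 TPM in plvx neo, 72.4, 79.7 and 72.3 TPM in STBD1 WT, and 63.7, 58.5 and 65.2 TPM in STBD1 W203C, again without overlap. Its log2 fold change was 1.63 (SE 0.0651, adjusted p = 3.66e-13) for STBD1 WT and 1.34 (SE 0.0652, adjusted p = 1.15e-12) for STBD1 W203C against plvx neo, and -0.29 (SE 0.0574, adjusted p = 7.11e-04) between the constructs. TNFAIP3, the deubiquitinase A20 that restrains NF-kB, gave 1.49 (SE 0.110, adjusted p = 4.56e-09), 1.12 (SE 0.132, adjusted p = 4.43e-06) and -0.36 (SE 0.102, adjusted p = 0.0103), the last with DESeq2 at an adjusted p of 0.0565.
Falls between the constructs were led by NFKBIZ, an atypical IkB protein that acts in the nucleus (-0.69, SE 0.120, adjusted p = 1.95e-04), and NFKB2, the p100 precursor (-0.52, SE 0.0394, adjusted p = 5.47e-09). NFKB2 and RELB were higher in both constructs than in plvx neo, whereas NFKBIZ was higher in STBD1 WT alone (0.66, adjusted p = 7.24e-04, against -0.035, adjusted p = 0.933, in STBD1 W203C). The DNA-binding subunits of the canonical dimer differed less. NFKB1 was higher in STBD1 WT vs plvx neo (0.35, adjusted p = 5.46e-05) and in STBD1 W203C vs plvx neo (0.47, adjusted p = 3.13e-06), with 0.12 between the constructs (adjusted p = 0.0573). RELA gave 0.23 (adjusted p = 5.37e-04), 0.093 (adjusted p = 0.301) and -0.14 (adjusted p = 0.0391), and the last passed in 2 of the 6 fits without 1 library. CHUK, a kinase of the IkB kinase complex, was the gene that fell in STBD1 WT vs plvx neo (-0.26, adjusted p = 1.88e-04), and MAP3K14, the kinase NIK of the non-canonical pathway, the one that fell in STBD1 W203C vs plvx neo (-0.42, adjusted p = 0.00298). CHUK and MAP3K14 are named after their values were seen.

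**Figure D3:**
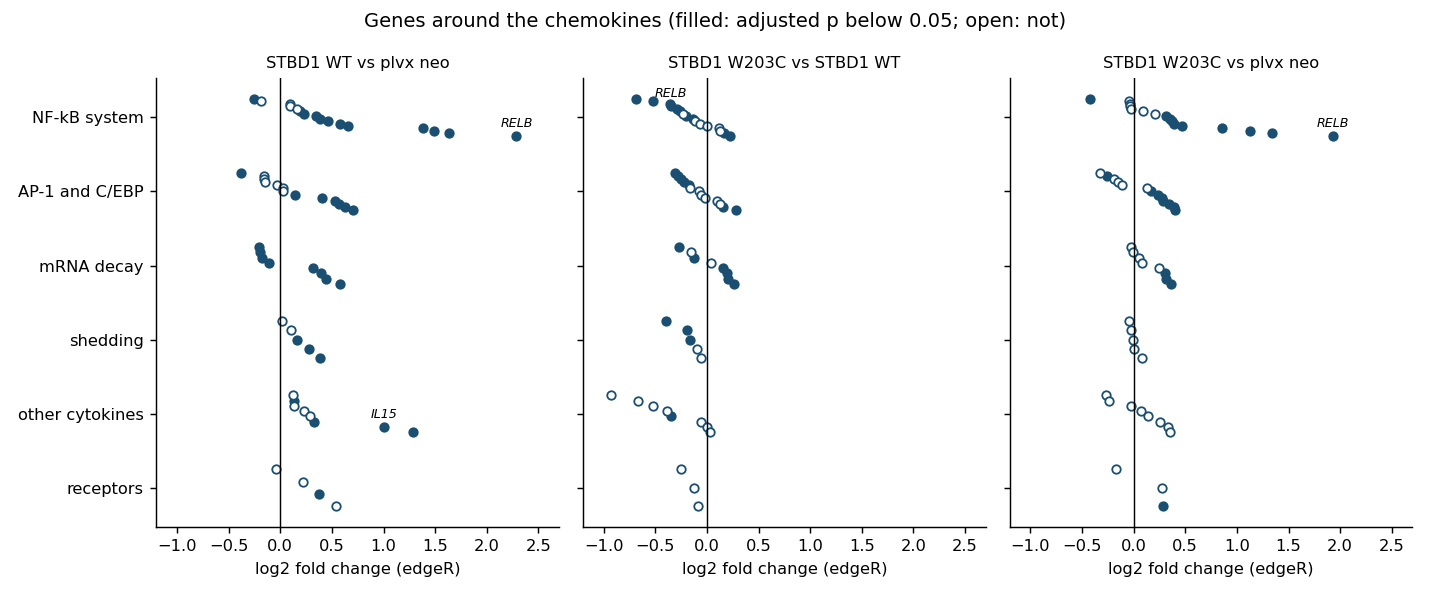
Log2 fold change (horizontal axis, edgeR) of each tested gene of the lists around the members, 1 point per gene and 1 panel per comparison, filled where the adjusted p was below 0.05. The NF-kB genes reach 2.29 (RELB) in STBD1 WT vs plvx neo and 1.93 in STBD1 W203C vs plvx neo, and stay between -0.69 and 0.23 in STBD1 W203C vs STBD1 WT.

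In the AP-1 and C/EBP list the genes that rose against plvx neo were of the Jun, Fos and ATF families. Of 13 genes tested, 6 were higher and 1 lower in STBD1 WT vs plvx neo, 7 higher and 1 lower in STBD1 W203C vs plvx neo, and 2 higher and 5 lower in STBD1 W203C vs STBD1 WT, with medians of 0.027, 0.17 and -0.079. The shares of all genes that passed there were 27.8%, 5.70% and 27.9%. The Jun genes, whose products form AP-1 with Fos proteins, led the rises in STBD1 WT vs plvx neo. In STBD1 W203C vs plvx neo JUND and JUNB led, followed by FOSL2 and not by JUN. JUNB gave log2 fold changes of 0.70 (SE 0.0395, edgeR adjusted p = 8.69e-11) in STBD1 WT and 0.39 (SE 0.0407, adjusted p = 7.41e-07) in STBD1 W203C, and -0.31 (SE 0.0408, adjusted p = 9.28e-06) between the constructs. JUND gave 0.63 and 0.40 against plvx neo (adjusted p = 2.20e-09 and 4.34e-06), and JUN gave 0.57 in STBD1 WT (adjusted p = 1.02e-06) and -0.28 between the constructs (adjusted p = 2.13e-05). CEBPG was the gene that was lower in both constructs (-0.38, adjusted p = 6.22e-05, and -0.26, adjusted p = 0.00534), and is named after its values were seen. FOSL2 was higher in STBD1 W203C vs plvx neo (0.34, adjusted p = 7.06e-05). Its level was alike in both constructs, at 13.96 to 15.45 TPM in STBD1 WT and 13.52 to 15.84 TPM in STBD1 W203C. In plvx neo FOSL2 stood at 10.55 to 11.66 TPM. CEBPD, a C/EBP factor, was higher in STBD1 W203C vs STBD1 WT (0.29, adjusted p = 0.0224), a call that DESeq2 did not make (adjusted p = 0.101).

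Many chemokine and cytokine mRNAs carry AU-rich elements, and proteins that bind mRNAs can set how fast they decay. All 8 genes of the mRNA decay list passed in STBD1 WT vs plvx neo, 4 higher and 4 lower, beside 27.8% of all genes tested. Higher were ZFP36, which encodes the destabilising protein tristetraprolin (0.58, SE 0.0484, edgeR adjusted p = 2.47e-08), its relative ZFP36L1 (0.44, adjusted p = 1.14e-06), and ZC3H12A, the ribonuclease regnase-1 (0.40, adjusted p = 0.00119). The remaining higher gene was ZC3H12C, at 2.81 to 3.28 TPM against 2.03 to 2.64 TPM in plvx neo. It is named in this comparison after its value was seen. Lower were ELAVL1, the stabilising protein HuR (-0.20, adjusted p = 9.64e-04), ZFP36L2, a relative of ZFP36 (-0.20, adjusted p = 0.00365), HNRNPD, the AU-rich element binder AUF1 (-0.17, adjusted p = 9.84e-04), and KHSRP, a destabilising protein (-0.11, adjusted p = 0.0382), named in this comparison after their values were seen. Destabilising proteins thus stood on both sides. In STBD1 W203C vs plvx neo, where 5.70% of all genes passed, 3 were higher, ZC3H12C (0.36, adjusted p = 0.00627), ZFP36 (0.31, adjusted p = 1.13e-04) and ZFP36L1 (0.31, adjusted p = 9.78e-05). In STBD1 W203C vs STBD1 WT, where 27.9% of all genes passed, 4 were higher and 2 lower, with ZFP36 at -0.27 (adjusted p = 3.10e-05), ZFP36L2 at 0.26 (adjusted p = 6.32e-04) and ELAVL1 at 0.21 (adjusted p = 7.75e-04).
Of the 5 shedding genes 3 were higher in STBD1 WT vs plvx neo and the same 3 were lower in STBD1 W203C vs STBD1 WT. These 2 comparisons share the STBD1 WT libraries, and 27.8% and 27.9% of all genes passed in them, in either direction. The 3 genes were RHBDF1 (0.38, edgeR adjusted p = 0.00242, and -0.40, adjusted p = 0.00237), RHBDF2 (0.28, adjusted p = 2.05e-04, and -0.19, adjusted p = 0.00515), which are rhomboid-like partners of ADAM17, and ADAM10, the protease that releases CXCL16 and CX3CL1 (0.16, adjusted p = 0.00872, and -0.17, adjusted p = 0.00666). None passed in STBD1 W203C vs plvx neo. ADAM17 passed in no comparison (0.017, -0.057 and -0.046, adjusted p = 0.849, 0.469 and 0.734). Over all these lists, 35 of 54 genes tested passed in STBD1 WT vs plvx neo, 27 of 53 in STBD1 W203C vs STBD1 WT and 22 of 53 in STBD1 W203C vs plvx neo, beside 27.8%, 27.9% and 5.70% of all genes. The lists were drawn up with results of these libraries known, so nothing is read from these counts.

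The ELR chemokines share a cluster on chromosome 4, and the non-member genes within the same stretch were looked at for whether they differed too. Of 16 such neighbours, from ANKRD17 482 kb before the CXCL8 start to PARM1 1193 kb after it, 7 were tested. The other chemokines inside the cluster (CXCL5, CXCL6, PPBP, PF4 and PF4V1) were too low. STBD1 WT had 2 of the 7 higher than plvx neo, beside 27.8% of all genes called in either direction, BTC (0.65, SE 0.177, edgeR adjusted p = 0.00913) and AREG (0.14, SE 0.0419, adjusted p = 0.0152), which encode ligands of the EGF receptor. EREG, another such ligand 625 kb from CXCL8, went with the W203C libraries instead. It was at 154 to 170 TPM in plvx neo, 164 to 169 TPM in STBD1 WT and 219 to 223 TPM in STBD1 W203C, so that only the last group stood apart. Its log2 fold change was 0.42 (SE 0.0340, adjusted p = 1.14e-08) in STBD1 W203C vs plvx neo and 0.37 (SE 0.0355, adjusted p = 1.88e-07) in STBD1 W203C vs STBD1 WT. In the latter comparison, where 4 of the 7 passed beside 27.9% of all genes, MTHFD2L was also higher (0.29, adjusted p = 0.0264), as was ANKRD17 (0.15, adjusted p = 0.00715, named after its value was seen), and PARM1 was lower (-0.25, adjusted p = 0.0140). The tested neighbours stayed between -0.16 and 0.65 in STBD1 WT vs plvx neo, against 3.55 for CXCL8 and 2.62 for CXCL1. STBD1 itself lies 2566 kb from CXCL8 on the same chromosome.

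**Figure D4:**
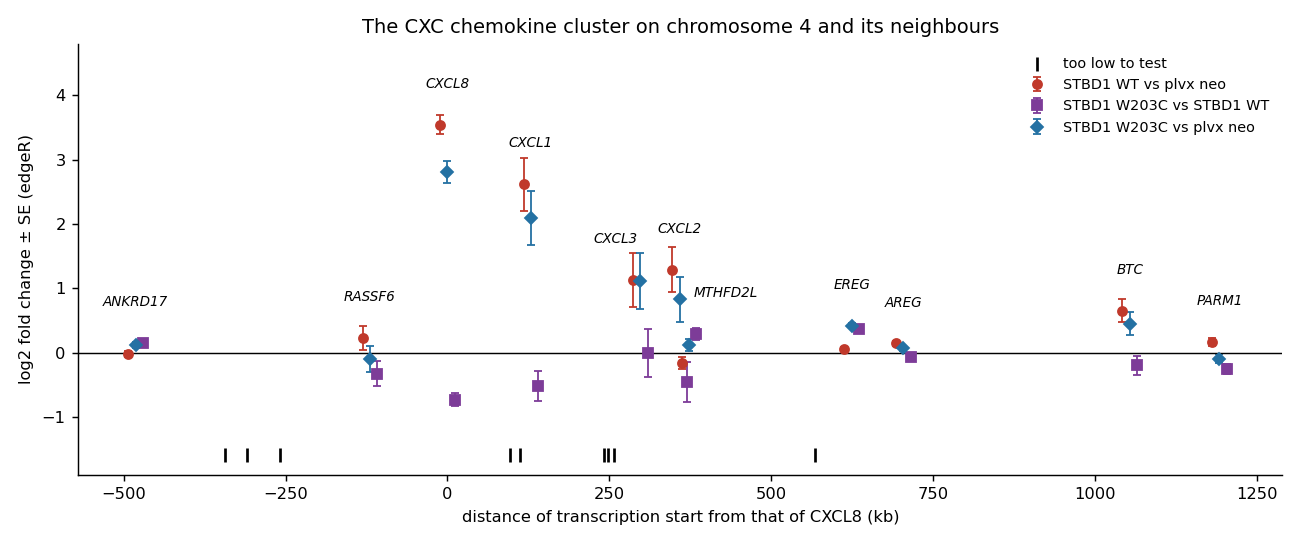
Log2 fold change with its standard error (vertical axis, edgeR) against the distance of each gene's start from that of CXCL8 (horizontal axis, kb) for the ELR chemokines and 16 neighbours, where the markers of 1 gene are drawn side by side and ticks stand for genes too low to test. The 4 ELR chemokines reach 1.13 to 3.55 in STBD1 WT vs plvx neo, and the tested neighbours stay between -0.16 and 0.65.

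Among 11314 genes that averaged 5 CPM or more, the 5 whose log2 CPM ran most like that of CXCL8 over the 9 libraries were CIC (Pearson r = 0.996), NFKBIA (0.991), PARP12 (0.988), RELB (0.987) and TAP1 (0.986). CIC encodes a transcriptional repressor, PARP12 an interferon-induced ADP-ribosyltransferase, and TAP1 a peptide transporter for antigen presentation. The spans differed widely, as the group mean of CIC went from 6.24 log2 CPM in plvx neo to 6.58 in STBD1 WT and 6.53 in STBD1 W203C, while that of RELB went from 3.44 to 5.72 and 5.37. In TPM, CIC stood at 20.5 ± 0.465, 24.4 ± 0.477 and 24.9 ± 2.62 (SD, n = 3), so the order of its construct groups was not that of CXCL8 on that scale. Of the members, IL32 ran closest to CXCL8 (r = 0.960), followed by CXCL1 (0.874), CXCL2 (0.847), CXCL3 (0.815), CSF1 (0.764), LIF (0.572) and CXCL16 (0.157). The 9 points fall into 3 groups, so each r mainly reflects how the 3 group means are placed, and is a description only.

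**Figure D5:**
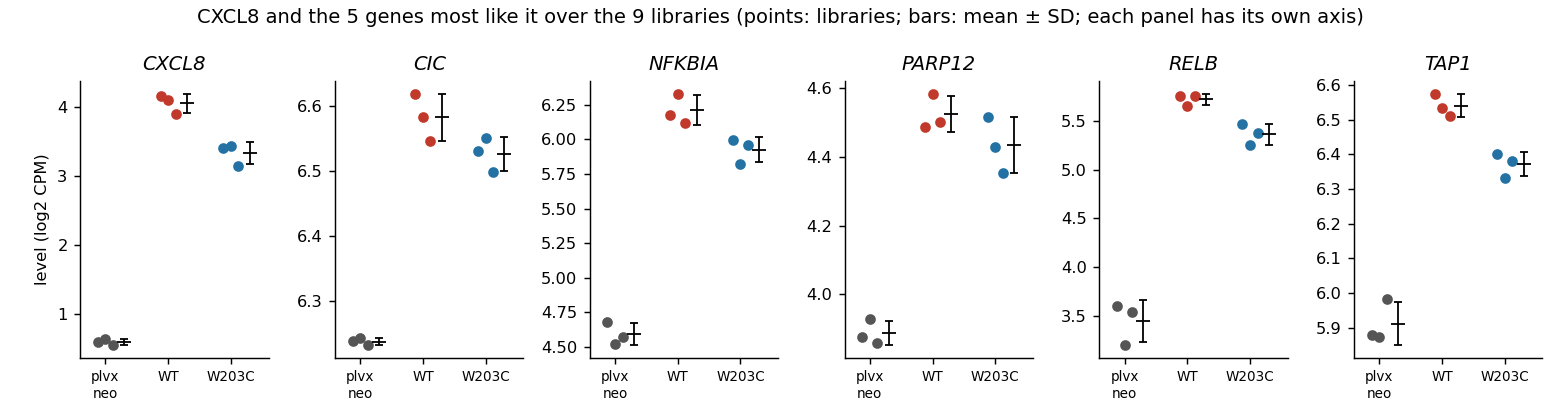
Level in log2 CPM (vertical axis, a separate range in each panel that does not start at 0) of CXCL8 and the 5 genes whose levels ran most like it, in each library by group, with group mean and SD (n = 3). In each panel the plvx neo libraries are lowest, and the STBD1 W203C mean lies below that of STBD1 WT.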

How the data were processed

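Total RNA of HCT116 cells was made into 9 libraries with a NEBNext Ultra kit and read in pairs on an Illumina platform. The authors aligned reads to hg38 with STAR 2.7.1a under Ensembl models and ran RSEM 1.3.1. The deposited tables hold RSEM expected counts, which need not be whole because reads shared by transcripts are divided (89 of 90 member values were whole), and the deposited TPM, in which the authors' run divided by effective length and set a fixed total per library, so TPM also moves with the estimated mix of transcripts. The strand setting of counting is not given in the sources used here.

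The sample titles gave the group and the replicate number. The members and all gene lists were chosen with earlier results of these data known. Expected counts were rounded, and each comparison fitted its 6 libraries alone with edgeR 4.0.16 in R 4.3.3 (TMM, filterByExpr, quasi-likelihood F-test, two-sided), with Benjamini-Hochberg adjustment over all genes tested and calls at an adjusted p below 0.05. The fit was tested on simulated data first. The SE is the log2 fold change over the square root of F. The study used DESeq2 and compared the 2 constructs, and STBD1 WT with plvx neo. The comparison of STBD1 W203C with plvx neo is an addition. Alternatives were DESeq2 1.42.0, limma 3.58.1 on log2(TPM + 1) and log2(TPM + 0.1), other size factors, no filter, all 9 libraries in 1 fit, the replicate number as a block, a fold change of at least 1.5, and leaving out each library.

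All 10 members are named. From each list and comparison up to 3 called genes with the largest change and a mean of at least 1 CPM are named, with NFKB1, RELA, NFKBIA, CXCR1, CXCR2, ADAM10 and ADAM17 whatever their result, and the 5 genes most correlated with CXCL8 in log2 CPM (prior count 2). Replicates differed by more than sampling noise (chi-square per gene 2.12 to 3.87 at 20 or more counts per gene in a pair). Coordinates are from GENCODE (hg38) and promoters from RefSeq.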

Additional observations from a re-analysis of the deposited data

How the results depend on the processing

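The log2 fold changes of the members kept their direction and their side of the threshold in 271 of 302 refits, fell short of the threshold in 18, newly passed it in 1 and changed sign in 12. CXCL8 passed in every refit that gave it an adjusted p. All members were selected with results of these libraries known, and the refits reuse the same libraries, so nothing is read from these counts. The sign changes were of values near 0: CXCL16 in STBD1 WT vs plvx neo (-0.0035 to 0.13 with 1 library left out), CXCL16 in STBD1 W203C vs plvx neo (0.035 and 0.036 by limma-trend on log2(TPM + 1) and log2(TPM + 0.1), and -0.084 to 0.048 with 1 library left out), LIF in STBD1 W203C vs plvx neo (-0.049 to 0.059 with 1 library left out) and CXCL3 in STBD1 W203C vs STBD1 WT (0.0015 by limma-trend on log2(TPM + 1), and -0.25 to 0.22 with 1 library left out). In STBD1 WT vs plvx neo, CXCL3 also lost its call without the filter, with all 9 libraries in the fit and under the replicate block.

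Counts of called genes kept within 1.5 times in 103 of 126 refits. Members in STBD1 W203C vs plvx neo went from 3 to 1 by DESeq2, which gave an adjusted p to only some of them, and to 1 by log2(TPM + 0.1). Genes of the lists around the members went from 35 to 21 (both TPM scales) and 9 (fold change of at least 1.5) in STBD1 WT vs plvx neo, from 27 to 16, 17 and 1 in STBD1 W203C vs STBD1 WT, and from 22 to 8, 7 and 4 in STBD1 W203C vs plvx neo, for log2(TPM + 1), log2(TPM + 0.1) and the fold change in turn. Chromosome 4 neighbours went from 2 to 0 and 0 on the TPM scales and 1 with the fold change in STBD1 WT vs plvx neo, from 4 to 2 (DESeq2), 1 and 1 (TPM) and 0 (fold change) in STBD1 W203C vs STBD1 WT, and from 1 to 0 (fold change) in STBD1 W203C vs plvx neo. The cause was not tested beyond the fold change, which can only remove calls. Leaving out 1 library gave 1 to 2 neighbours in STBD1 WT vs plvx neo (1 without plvx neo replicate 1 or STBD1 WT replicate 3), 2 to 4 in STBD1 W203C vs STBD1 WT (2 without STBD1 W203C replicate 2) and 1 to 2 in STBD1 W203C vs plvx neo (2 without plvx neo replicate 2). It gave 5 to 6, 3 to 4 and 3 to 3 members, and 30 to 35, 23 to 26 and 17 to 21 genes of the lists. The replicate block gave 6, 3 and 3 members, 35, 25 and 23 genes of the lists and 2, 4 and 1 neighbours. Over all genes it called 4400, 3662 and 1003, against 4254, 4202 and 859 without it. Taken over all genes, same-numbered libraries did not deviate together (mean r of 0.020, -0.0091 and 0.0087). Such a mean cannot exclude a pairing that touches some genes only.

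Over all genes, limma-trend on log2(TPM + 1) called 1264 higher and 554 lower in STBD1 W203C vs STBD1 WT, against 2178 and 2024 in the fit of counts, and 96 and 34 in STBD1 W203C vs plvx neo, against 457 and 402. Depth limits CXCL1, CXCL2 and CXCL3, with 1 to 66 counts per library, and leaves CCL20 and CX3CL1 untested.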
